A study of Mus musculus with 6 samples.

Results

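The genes examined here encode the secreted Wnt ligands, their receptors and the antagonists that act outside the cell, together with a set of proteins that relay or limit the signal inside it. They were taken by symbol: every gene named Wnt, Fzd, Dkk or Sfrp with its number, and Lrp5, Lrp6, Wif1, Ror1, Ror2, Ryk, Porcn, Axin1, Axin2, Lef1, Tcf7, Tcf7l1, Tcf7l2, Apc, Rnf43 and Znrf3. Of 18182 genes listed in the files, 50 met this definition, among them 18 ligands, 9 Frizzled receptors, 2 co-receptors, 3 alternative receptors and 8 secreted antagonists. The remaining members were Porcn, 3 genes of the destruction complex, 4 nuclear factors and 2 ubiquitin ligases.

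Lewis lung carcinoma (LLC) cells are a mouse lung tumour line. LLC cells carrying red fluorescent protein (LLC-RFP) were injected under the skin of wild type C57BL/6 mice, either alone or together with bone marrow-derived mesenchymal stem cells (BMSCs), multipotent stromal cells that were a purchased C57BL/6 culture. Cells positive for red fluorescent protein were sorted by flow cytometry from the primary tumours and their messenger RNA was sequenced, with 3 libraries for each group. All 6 libraries therefore shared the tumour line, the fluorescent marker, the mouse strain and the sort, and the groups, called LLC alone and LLC with BMSCs, differed in the co-injected cells. The study's methods describe young female mice for tumour growth experiments with luciferase-labelled LLC cells and state no age for the mice of the sorted cells. The labels do not say whether the libraries of a group came from separate animals, so that the p-values below measure the spread between these samples.

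In canonical Wnt signalling a lipid-modified ligand binds a Frizzled receptor together with Lrp5 or Lrp6. This disables the cytoplasmic destruction complex, built on Axin and Apc, and lets beta-catenin accumulate and act in the nucleus with the TCF/LEF factors. Other ligands act through Frizzled, Ror or Ryk receptors without beta-catenin and influence cell polarity and movement. In the lung the pathway is known for its part in branching of the embryonic airways and in the renewal of alveolar cells.

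Each library held between 33476347 and 46189113 counted fragments. Levels are given as FPKM, the fragments of a gene divided by its length and its library's total, which allows genes to be compared with each other. Fold changes are LLC with BMSCs over LLC alone on the log2 scale with their standard error (SE), from edgeR's quasi-likelihood test on the estimated counts with Benjamini-Hochberg adjustment over 13353 tested genes, and a gene was called at an adjusted p under 0.05. The third library of LLC alone stood apart from the other libraries of its group, and the first of LLC with BMSCs did so to a smaller degree. Tested genes were split by length into 5 equal bins. The median log2 deviation of LLC alone replicate 3 from the mean of all libraries was 0.313 in the shortest bin and -0.365 in the longest. The LLC with BMSCs libraries tilted the opposite way, from -0.189 to -0.091 in the shortest bin and from 0.104 to 0.18 in the longest. Values with that trend removed are given beside the long members. Markers of stromal cells rose together in LLC with BMSCs, with 9 of 9 tested markers higher, where 31.5% of all tested genes were higher. Their summed level was 270.9 to 326.3 CPM (counts scaled to library size) in LLC alone and 670.6 to 702.3 CPM in LLC with BMSCs. Most of both sums was Col3a1, at 204.7 to 240.8 and 539.4 to 558.4 CPM, while Col1a1 measured 0.0436 to 0.12 and 10.8 to 13.1 CPM. Of the 12 listed, Thy1, Fbln1 and Cxcl12 were at 0 in every library of LLC alone. All 8 tested neutrophil markers were also higher (0.893 to 1.23 CPM against 39.2 to 42.8 CPM summed). Col1a1, Dcn, Lum and Fbln1 of the stromal list and Camp, Csf3r, Mmp8, Ngp, S100a8 and S100a9 of the neutrophil list passed the filter only through LLC with BMSCs, so the counts of markers are descriptions. Of 9 tested macrophage markers 6 were higher and 2 lower (24.8 to 29.7 CPM against 36.1 to 38.6 CPM summed). Among these, Adgre1, Itgam, Mrc1 and Ptprc passed the filter only through LLC with BMSCs and Cx3cr1 only through LLC alone. In each case that was the group where the gene was high, so these counts are descriptions too. The lymphocyte and keratinocyte lists held no tested gene, and none of the 2 endothelial, 1 muscle and 1 adipocyte genes tested was called. Of the lung and carcinoma epithelial markers only Krt8 and Krt18 passed the filter, and both were higher, but Krt18 passed only through LLC with BMSCs. Epcam, Cdh1, Krt19, Krt7, Nkx2-1 and Sftpc did not pass the filter on low counts in these LLC cells. The part of other cells' RNA in the results below was not tested, and in such bulk samples a change in the share of a cell type and a change in RNA per cell cannot be told apart.

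Among the 50 genes, 28 passed the filter on low counts, 10 of them were higher in LLC with BMSCs, 5 were lower and 13 were not called. The share of members called, 53.57%, stood beside 62.9% of all tested genes, with 31.5% of all genes higher and 31.3% lower. The median log2 fold change was 0.05 over the tested members and 0.012 over all genes. A call with a log2 fold change of at least 1 in size was reached by 5 members, beside 15.8% of all tested genes. These were Wnt7b and Sfrp4 upward, beside 8.65% of all genes, and Wnt9a, Fzd4 and Tcf7 downward, beside 7.17%. Sfrp4 met the filter's minimum only in the libraries of LLC with BMSCs and Wnt9a in all 3 of LLC alone but 2 of 3 of LLC with BMSCs, so each entered the test through the group where it was high. In 18 of the 28 the libraries of the 2 groups did not overlap in normalized counts, beside 71.3% of all genes. The shares of the members lay near or below those of all genes, so what follows is about single ligands, receptors and factors. The other 22 members were nearly silent, with means of at most 0.06 FPKM in a group and at most 17 counts in any library.

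**Figure D1:**
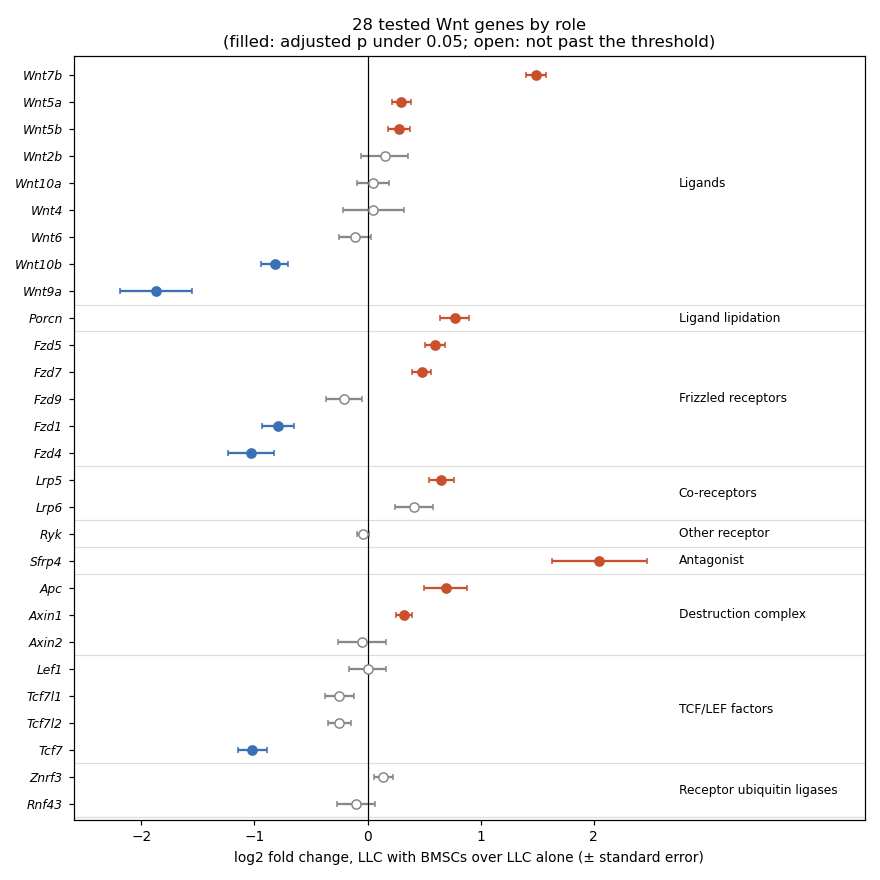
Log2 fold change, LLC with BMSCs over LLC alone, of the 28 tested Wnt genes, sorted by role and by size within a role. Points are estimates and bars are standard errors, filled points have an adjusted p under 0.05 and open points do not. Wnt7b at 1.49 and Sfrp4 at 2.05 lie farthest to the right and Wnt9a at -1.87 farthest to the left.

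Among the ligands, Wnt7b rose, Wnt10b and Wnt9a fell, and Wnt5a and Wnt5b were slightly higher. Of 18 ligand genes, 9 were tested, 3 were higher and 2 lower, beside 31.5% higher and 31.3% lower of all tested genes. Wnt7b (gene identifier 22422), a ligand of the beta-catenin pathway that takes part in lung development, measured 2.74, 2.48 and 2.54 FPKM in LLC alone and 8.15, 7.23 and 6.77 FPKM in LLC with BMSCs. Every library of LLC with BMSCs lay above every library of LLC alone, and none came near the other group. The means were 2.59 ± 0.136 and 7.38 ± 0.703 FPKM (SD, n = 3), a 2.81-fold difference (log2 fold change 1.49, SE 0.091, adjusted p = 8.02e-06). Nearly all of it lay in the transcript NM_001163634, which held all of the gene's FPKM in LLC alone and 95.8% to 97.9% in LLC with BMSCs. An annotated gene, AU022754, overlaps exons of Wnt7b on the opposite strand, and whether reads were counted by strand is not given in the sources used here.

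Wnt10b, a ligand of the same pathway known for holding mesenchymal cells back from becoming fat cells, measured 2.79, 2.39 and 2.69 FPKM in LLC alone and 1.45, 1.37 and 1.71 FPKM in LLC with BMSCs. The groups did not overlap, and the level fell by 0.82 on the log2 scale (SE 0.12, adjusted p = 0.000615). Wnt10b and Wnt7b thus stood almost level in LLC alone, and their order was clear in every library of LLC with BMSCs. Wnt9a, which is known from joint formation, was far lower from the start, at 0.21, 0.28 and 0.27 FPKM against 0.03, 0.09 and 0.08 FPKM. Its levels rest on 31, 31 and 41 counts against 5, 13 and 12, and the groups did not overlap (log2 fold change -1.87, SE 0.32, adjusted p = 0.00148). Wnt9a met the filter's minimum in 3 libraries of LLC alone but 2 of LLC with BMSCs. It thus entered the test through the group where it was high, and its values are descriptions.

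Wnt5a and Wnt5b, the ligands best known for signalling without beta-catenin, changed little. Wnt5a measured 3.18, 3.27 and 2.95 FPKM in LLC alone and 3.99, 3.57 and 4.08 FPKM in LLC with BMSCs (log2 fold change 0.30, SE 0.088, adjusted p = 0.0180). Wnt5b measured 1.60, 1.58 and 1.78 FPKM against 2.02, 2.01 and 1.91 FPKM (log2 fold change 0.28, SE 0.095, adjusted p = 0.0341). The groups did not overlap for either gene, but the gap was narrow. The Wnt5b call was lost in 9 of 17 alternative analyses, in 5 of which a single library was left out, each time with adjusted p from 0.0681 to 0.106. The Wnt5a call was lost without LLC with BMSCs replicate 1 (adjusted p = 0.0588) or replicate 3 (adjusted p = 0.0675), and with the close pairs of libraries summed (adjusted p = 0.0549). An annotated gene, Gm2670, overlaps exons of Wnt5a on the opposite strand.

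The other tested ligands were not called. Wnt6 measured 1.56, 1.54 and 1.79 FPKM in LLC alone and 1.3, 1.78 and 1.5 FPKM in LLC with BMSCs, with overlapping groups (log2 fold change -0.11, SE 0.14). Wnt10a, the closest relative of Wnt10b, had means of 0.947 ± 0.0115 and 0.993 ± 0.121 FPKM (SD, n = 3) and a log2 fold change of 0.05 (SE 0.14). Wnt2b and Wnt4 stayed at or under 0.20 FPKM in every library, with log2 fold changes of 0.15 (SE 0.21) and 0.05 (SE 0.27).

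Taken as levels within each library, the ligand genes summed to 13.2 ± 0.307 FPKM in LLC alone (range 12.81 to 13.37) and 17.8 ± 0.700 FPKM in LLC with BMSCs (range 17.31 to 18.59). In LLC alone Wnt5a led by a small margin, with 23.8% of the sum, beside Wnt10b with 19.9%, Wnt7b 19.6%, Wnt5b 12.6% and Wnt6 12.4%. In LLC with BMSCs Wnt7b made up 41.5% (range 39.1% to 43.8%), Wnt5a 21.8%, Wnt5b 11.1%, Wnt6 8.62% and Wnt10b 8.51%. The difference between the summed means, 13.2 against 17.8 FPKM, was close to that of Wnt7b alone, 2.59 against 7.38 FPKM. These shares are descriptions and carry no test.

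**Figure D2:**
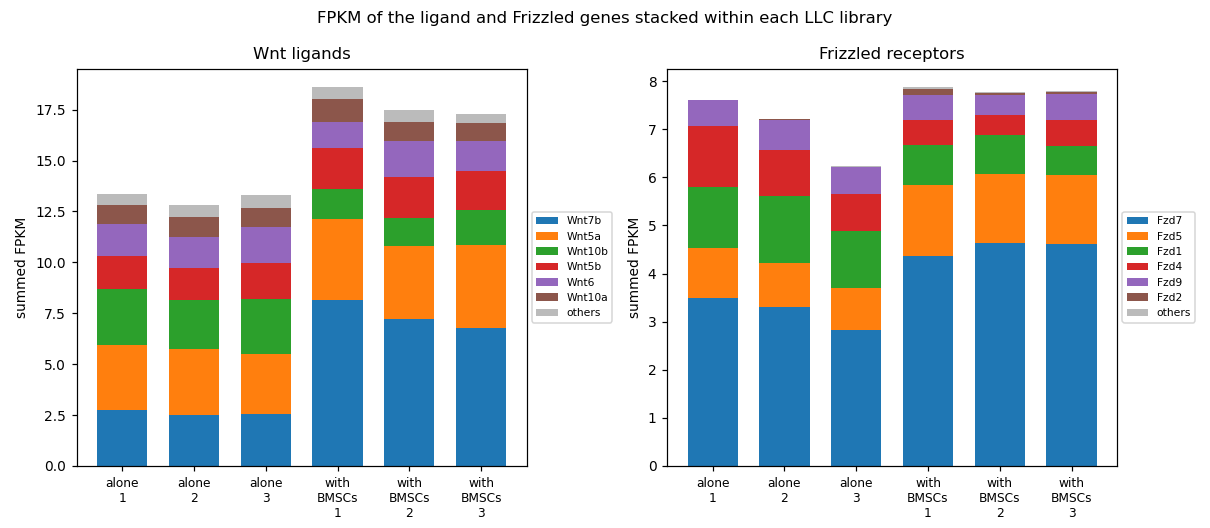
FPKM of the ligand genes (left) and of the Frizzled genes (right), stacked within each of the 6 LLC libraries, with the 6 highest genes of each family in colour. Wnt7b takes 41.5% of the ligand stack with BMSCs against 19.6% alone, and Fzd7 58.1% of the Frizzled stack against 45.7%.

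Of the 9 ligands without a test, several had a few counts. Wnt2 had 1, 1 and 1 counts in LLC alone and 8, 5 and 3 in LLC with BMSCs, a ratio of 4.99 per fragment sequenced (95% interval 1.43 to 26.7, counting error only). Wnt16 had 0 counts in all libraries of LLC alone and 3, 3 and 5 in LLC with BMSCs. That was 3.43-fold higher against a floor of 3 counts over the group, with the counting error of LLC with BMSCs left out. Wnt11 went the other way in total, with 4, 2 and 10 counts against 2, 4 and 1, but its libraries overlapped and the interval of its ratio of 0.41 ran from 0.142 to 1.05. Wnt1, Wnt3, Wnt3a, Wnt7a, Wnt8a and Wnt8b had at most 3 counts in any library. Without the filter on low counts, Wnt2 (adjusted p = 0.0271) and Wnt16 (adjusted p = 0.0159) passed the threshold, together with the receptor gene Fzd2. In that setting 24.2% of all genes were called higher.

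Porcn, the membrane enzyme of the endoplasmic reticulum that attaches the lipid every Wnt ligand needs for secretion, rose. It measured 0.84, 0.67 and 0.84 FPKM in LLC alone and 1.37, 1.23 and 1.16 FPKM in LLC with BMSCs. All LLC with BMSCs libraries were above all of LLC alone, a 1.70-fold difference (log2 fold change 0.77, SE 0.13, adjusted p = 0.00138). Wls, the carrier that takes the lipid-bearing ligand to the cell surface and that belongs to a separate list of pathway genes, moved the other way. Its FPKM was 73.84, 73.77 and 72.10 in LLC alone and 41.23, 43.49 and 44.18 in LLC with BMSCs. The groups lay far apart, with a fall by 0.79 on the log2 scale (SE 0.054, adjusted p = 1.41e-05).

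**Figure D3:**
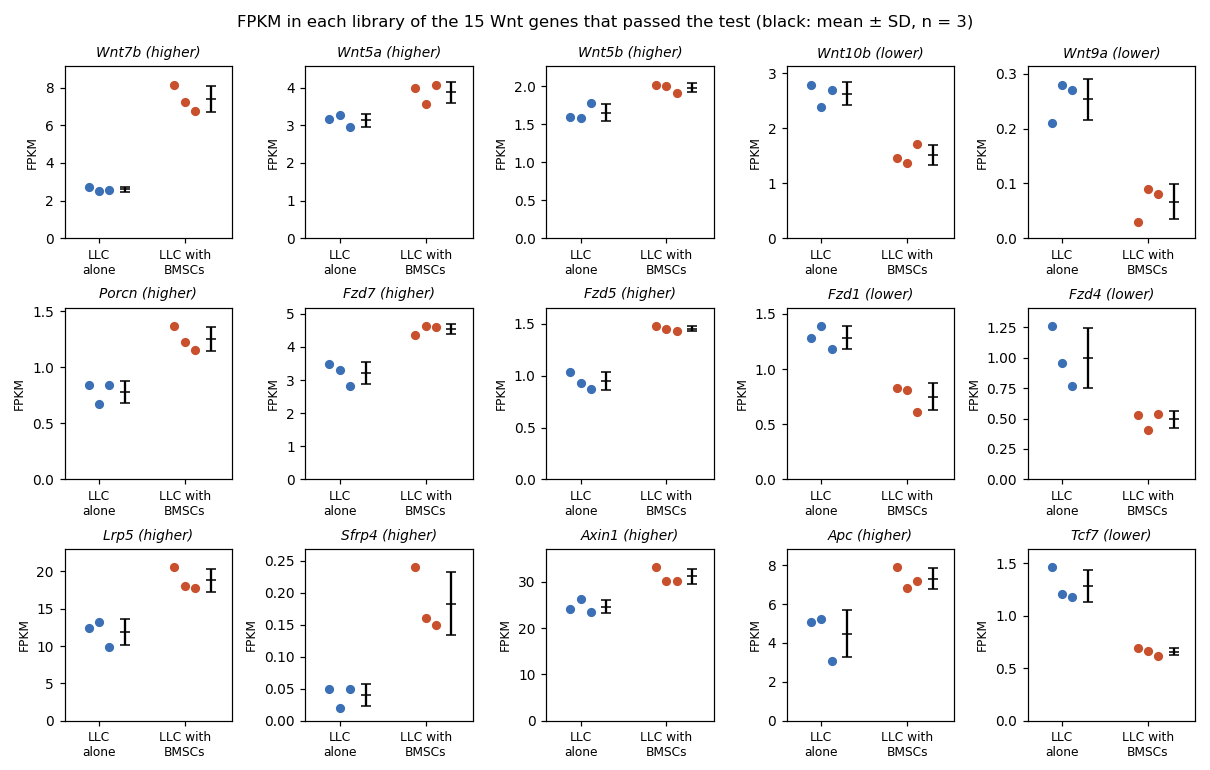
FPKM in each library of the 15 Wnt genes called, 1 panel a gene with its own axis from 0. Dots are libraries (blue, LLC alone, and orange, LLC with BMSCs) and black marks are the mean ± SD of 3. The groups do not overlap in any of the 15 panels, whose genes were chosen by the test on these same libraries. Over all tested genes, 71.3% did not overlap in normalized counts.

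The Frizzled receptors split, with Fzd7 and Fzd5 higher and Fzd1 and Fzd4 lower in LLC with BMSCs. Frizzleds are receptors spanning the membrane 7 times whose outer cysteine-rich domain holds the ligand's lipid. Of 9 genes, 5 were tested and 4 called, beside 62.9% of all tested genes. As these 4 moved in opposite directions, the sequences around their starts are shown to compare them. They come from RefSeq on the build GRCm38.p6 and hold 250 bases before and 50 after each annotated start, 5′ to 3′ on the gene's strand, with every CG dinucleotide in capitals. They lie at chr5:4758167-4758466 on the minus strand for Fzd1, chr7:89404116-89404415 on the plus strand for Fzd4, chr1:64737701-64738000 on the minus strand for Fzd5 and chr1:59481897-59482196 on the plus strand for Fzd7.
Fzd1: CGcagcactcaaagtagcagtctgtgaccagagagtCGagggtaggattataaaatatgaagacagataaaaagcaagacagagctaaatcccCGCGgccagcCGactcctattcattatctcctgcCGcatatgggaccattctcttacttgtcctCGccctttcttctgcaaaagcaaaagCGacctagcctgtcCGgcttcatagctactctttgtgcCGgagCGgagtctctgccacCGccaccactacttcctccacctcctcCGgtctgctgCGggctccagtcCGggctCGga
Fzd4: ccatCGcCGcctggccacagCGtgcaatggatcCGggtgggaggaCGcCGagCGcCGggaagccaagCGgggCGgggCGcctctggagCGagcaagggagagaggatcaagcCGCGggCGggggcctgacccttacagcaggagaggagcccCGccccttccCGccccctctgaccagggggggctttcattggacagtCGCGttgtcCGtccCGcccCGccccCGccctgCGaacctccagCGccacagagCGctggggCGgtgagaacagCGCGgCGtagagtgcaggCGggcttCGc
Fzd5: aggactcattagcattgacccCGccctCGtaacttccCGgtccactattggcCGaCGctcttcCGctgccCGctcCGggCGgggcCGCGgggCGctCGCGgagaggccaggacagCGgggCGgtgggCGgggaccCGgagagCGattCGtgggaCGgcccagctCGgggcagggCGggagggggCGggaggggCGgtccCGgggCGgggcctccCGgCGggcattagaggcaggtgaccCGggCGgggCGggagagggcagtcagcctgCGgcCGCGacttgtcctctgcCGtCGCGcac
Fzd7: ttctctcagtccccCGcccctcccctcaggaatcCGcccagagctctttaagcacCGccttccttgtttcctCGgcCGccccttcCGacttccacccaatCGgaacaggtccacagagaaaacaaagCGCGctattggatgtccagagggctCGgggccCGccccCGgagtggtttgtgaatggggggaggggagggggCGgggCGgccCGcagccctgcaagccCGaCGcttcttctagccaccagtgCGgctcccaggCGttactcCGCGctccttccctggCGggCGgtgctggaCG

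The windows held 16 CG dinucleotides in Fzd1, 32 in Fzd4, 38 in Fzd5 and 24 in Fzd7, where the median of all 32851 windows of this length was 7. The higher pair (Fzd5, Fzd7) and the lower pair (Fzd1, Fzd4) overlapped in this count and in GC content. The GC content was 54.0% in Fzd1, 72.7% in Fzd4, 75.7% in Fzd5 and 66.7% in Fzd7. Both strands were searched for 3 short motifs, and none of the 4 windows held any. The TCF/LEF form CTTTGAT occurred in 3.73% of all windows, its variant CTTTGAA in 5.14% and the STAT form TTCNNNGAA in 8.30%. Of the members, 32 had a window in the table used. The first motif occurred in those of Wnt5b and Wnt11, the variant in that of Dkk1 and the STAT form in that of Wnt5b. A match is a description of letters and not a binding site.

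Fzd7, the most abundant Frizzled in these cells and a receptor known from stem cells of several epithelia, measured 3.49, 3.30 and 2.83 FPKM in LLC alone and 4.36, 4.63 and 4.61 FPKM in LLC with BMSCs. No library of one group reached into the other (log2 fold change 0.48, SE 0.085, adjusted p = 0.00173). Its length is 4840 bases, and with the length trend removed the log2 fold change of Fzd7 was 0.32 (adjusted p = 0.00105). Fzd5, a receptor that several beta-catenin pathway ligands can use, measured 1.04, 0.93 and 0.87 FPKM against 1.48, 1.45 and 1.43 FPKM. The LLC with BMSCs libraries were nearly equal and above all of LLC alone (log2 fold change 0.60, SE 0.089, adjusted p = 0.000703). Fzd5 is a long gene of 6887 bases, and with each library's trend over length removed its log2 fold change was 0.34 (adjusted p = 0.00561). An annotated gene, Gm38058, overlaps its exons on the opposite strand.

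Fzd1 measured 1.28, 1.39 and 1.18 FPKM in LLC alone and 0.83, 0.81 and 0.61 FPKM in LLC with BMSCs. It fell by 0.79 on the log2 scale (SE 0.14, adjusted p = 0.00168) with no overlap. Fzd4, which also serves as the receptor for norrin in blood vessel growth, measured 1.26, 0.96 and 0.77 FPKM against 0.53, 0.41 and 0.54 FPKM. Its LLC alone libraries were spread over a wide range and still all above those with BMSCs (log2 fold change -1.03, SE 0.20, adjusted p = 0.00299). Without LLC alone replicate 1, the highest library, it was -0.82 (adjusted p = 0.00761).

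The summed Frizzled level moved less than its parts, from 7.02 ± 0.716 FPKM (range 6.23 to 7.62) in LLC alone to 7.81 ± 0.0529 FPKM (range 7.77 to 7.87) in LLC with BMSCs. Fzd7 made up 45.7% of it alone and 58.1% with BMSCs, Fzd5 13.5% and 18.6%, Fzd1 18.3% and 9.60%, and Fzd4 14.1% and 6.31%. Fzd9, whose human counterpart lies in the Williams syndrome region, was not called at 0.57 ± 0.0458 and 0.497 ± 0.0681 FPKM (SD, n = 3). Fzd2, without a test, had 2, 2 and 1 counts in LLC alone and 17, 4 and 7 in LLC with BMSCs, a ratio of 5.24 (95% interval 2.0 to 17.4, counting error only), and passed the threshold without the filter (adjusted p = 0.0296). Fzd8 had 0 counts in LLC alone and 4, 1 and 1 in LLC with BMSCs, 1.87-fold higher when 3 counts over the group replaced the 0. Fzd3 and Fzd6 had at most 4 counts in any library.

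Of the co-receptors Lrp5 rose and Lrp6 was not called. Both are low-density lipoprotein receptor relatives whose tails bind Axin once a ligand is bound. Lrp5 measured 12.45, 13.24 and 9.87 FPKM in LLC alone and 20.55, 18.09 and 17.76 FPKM in LLC with BMSCs, with no overlap (log2 fold change 0.65, SE 0.11, adjusted p = 0.00173). Lrp6 measured 11.73, 11.71 and 7.28 FPKM against 14.52, 13.15 and 13.67 FPKM (log2 fold change 0.41, SE 0.17, adjusted p = 0.0649). The groups did not overlap for Lrp6 either, and its spread in LLC alone came from replicate 3, the library whose long genes were low. Without that library the log2 fold change of Lrp6 was 0.22, and the gene was called (adjusted p = 0.00574). It was also called at 0.52 without LLC alone replicate 1 (adjusted p = 0.0484) and at 0.51 without replicate 2 (adjusted p = 0.0479). DESeq2 on all libraries called Lrp6 too, at 0.41 (adjusted p = 0.023). Leaving out any single library of LLC with BMSCs gave no call (adjusted p from 0.0988 to 0.172). The lengths are 5172 bases for Lrp5 and 9368 for Lrp6, and with the length trend removed the changes were 0.47 (adjusted p = 0.000242) and 0.09 (adjusted p = 0.129).

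Ryk, a receptor with an inactive kinase domain that binds ligands through a domain like that of Wif1, was the most abundant of the 50 genes. It measured 56.78, 57.32 and 59.06 FPKM in LLC alone and 56.44, 57.22 and 56.88 FPKM in LLC with BMSCs. All 6 values lay close together (log2 fold change -0.04, SE 0.052, adjusted p = 0.492). Its transcript NM_013649 held 66.5% to 69.1% of its FPKM in LLC alone and 64.4% to 66.4% in LLC with BMSCs. Ror1 and Ror2, receptor kinases for Wnt5a, had at most 3 counts in any library.

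The 8 secreted antagonists taken by symbol were almost silent in both groups, and only Sfrp4 of them was tested. These symbols leave out Frzb, a secreted Frizzled-related protein of the separate list of pathway genes, described below. Frzb was better expressed than Sfrp4 and was lower with BMSCs. Its mean went from 0.753 to 0.29 FPKM (log2 fold change -1.40, adjusted p = 0.000341). Secreted Frizzled-related proteins carry the ligand-binding domain of a Frizzled without its membrane part. Sfrp4 measured 0.05, 0.02 and 0.05 FPKM in LLC alone and 0.24, 0.16 and 0.15 FPKM in LLC with BMSCs, from 4, 1 and 4 counts against 18, 12 and 11. Here too the libraries separated by group, and the fitted log2 fold change was 2.05 (SE 0.42, adjusted p = 0.00354), but even the highest library reached only 0.24 FPKM. Sfrp4 passed the filter on low counts only through LLC with BMSCs, where it is high, and it gave no value with at least 10 counts required in every library. Dkk2, a Dickkopf protein that binds Lrp5 and Lrp6, had 2, 1 and 0 counts against 4, 3 and 10, a ratio of 5.30 (95% interval 1.53 to 28.2, counting error only). Dkk1, Dkk3, Dkk4, Sfrp1, Sfrp5 and Wif1 had at most 3 counts in any library.

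In the destruction complex Axin1 and Apc rose and Axin2 was not called. Axin1, the scaffold that holds the complex together, measured 24.20, 26.19 and 23.52 FPKM in LLC alone and 33.12, 30.14 and 30.17 FPKM in LLC with BMSCs. The groups did not overlap (log2 fold change 0.32, SE 0.069, adjusted p = 0.00466), and NM_001159598 held 86.2% to 89.5% of the gene's FPKM in every library. Apc, the tumour suppressor that hands beta-catenin on for destruction, measured 5.09, 5.23 and 3.07 FPKM against 7.89, 6.82 and 7.19 FPKM (log2 fold change 0.69, SE 0.19, adjusted p = 0.0135). It is the longest tested member at 12554 bases, and the low value in LLC alone is that of replicate 3. With the length trend removed the change was 0.31 (adjusted p = 0.000279), and without LLC with BMSCs replicate 1 it was 0.62 and missed the threshold (adjusted p = 0.0558). The RefSeq transcript NM_007462 measured 2.92, 3.50 and 2.76 FPKM against 5.55, 5.34 and 5.59 FPKM. A transcript assembled by the authors' pipeline measured 2.17, 1.73 and 0.32 FPKM against 2.35, 1.47 and 1.60 FPKM, so that the groups were apart in the first and overlapped in the second.

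Axin2, a second scaffold and a widely used readout because beta-catenin induces it, measured 0.41, 0.38 and 0.26 FPKM in LLC alone and 0.40, 0.32 and 0.30 FPKM in LLC with BMSCs. The groups overlapped (log2 fold change -0.05, SE 0.21, adjusted p = 0.837). Its level was low, from 51 to 80 counts a library, so that a small change could not have been seen. Axin1 stood above it in every library, at 24.6 against 0.35 FPKM in LLC alone. The ubiquitin ligases Rnf43 and Znrf3, which remove Frizzleds from the cell surface and are themselves beta-catenin targets, were not called. Rnf43 had means of 0.32 ± 0.02 and 0.307 ± 0.0473 FPKM (SD, n = 3). Znrf3 measured 6.61, 6.32 and 5.38 FPKM against 6.91, 6.61 and 6.78 FPKM (log2 fold change 0.14, SE 0.083, adjusted p = 0.173). At 7290 bases it is another long gene, and with the length trend removed it was -0.13 and past the threshold (adjusted p = 0.036), so that no direction can be given.

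**Figure D4:**
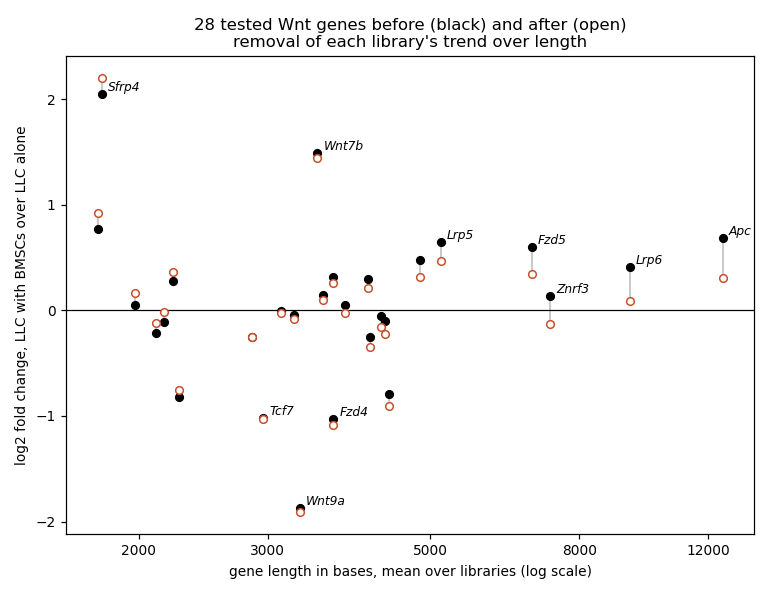
Log2 fold change of the 28 tested Wnt genes against gene length in bases (log axis), as estimated (black) and with each library's trend over length removed (open), joined by a line for each gene. The 5 members longer than 5000 bases move down the most, Apc from 0.69 to 0.31 and Znrf3 from 0.14 to -0.13, while Wnt7b goes from 1.49 to 1.44.

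Of the 4 nuclear factors Tcf7 was called, and it fell. The TCF/LEF proteins bind DNA and recruit beta-catenin or, without it, co-repressors. Tcf7 measured 1.46, 1.21 and 1.18 FPKM in LLC alone and 0.69, 0.66 and 0.62 FPKM in LLC with BMSCs. Each library with BMSCs lay below each library of LLC alone (log2 fold change -1.02, SE 0.13, adjusted p = 0.000306). Most of the fall lay in a transcript assembled by the authors' pipeline, at 0.96, 0.96 and 0.81 FPKM against 0.33, 0.42 and 0.31 FPKM. The RefSeq transcript NM_001313981 measured 0.50, 0.25 and 0.00 FPKM against 0.36, 0.19 and 0.30 FPKM, with overlap. Another RefSeq transcript, NM_009331, measured 0.00, 0.00 and 0.37 FPKM against 0.00, 0.05 and 0.00 FPKM, also with overlap.

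Tcf7l1, a factor known mainly as a repressor in stem cells, was by far the most abundant and made up 81.6% of the summed TCF/LEF level in LLC alone and 82.6% in LLC with BMSCs. It measured 25.33, 21.86 and 23.34 FPKM against 24.19, 17.31 and 18.64 FPKM (log2 fold change -0.25, SE 0.13, adjusted p = 0.126). The groups overlapped through LLC with BMSCs replicate 1, and without it the log2 fold change was -0.41 (adjusted p = 0.00823). Tcf7l2 measured 3.20, 3.29 and 3.88 FPKM against 3.03, 2.73 and 3.12 FPKM (log2 fold change -0.25, SE 0.10, adjusted p = 0.0609). Its groups did not overlap, and with the length trend removed it passed the threshold at -0.35 (adjusted p = 0.0228). Lef1 had means of 0.55 ± 0.0265 and 0.54 ± 0.0520 FPKM (SD, n = 3) and was not called (adjusted p = 0.989). Exons of Tcf7l1, Lef1 and, among the other members, Axin2, Fzd6 and Wnt11 are overlapped by annotated genes on the opposite strand.

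A list of 65 further genes of the pathway, which take part in beta-catenin turnover, co-repression and the polarity branch, was counted in the same fit. The files held 64 of them and the test covered 53, with 19 higher, 10 lower and 24 not called and a median log2 fold change of 0.14. Gpc4 and Prickle2, both among the higher, entered the test only through LLC with BMSCs, where they were high. The share called, 54.7%, again stood beside 62.9% of all genes. Ctnnb1, which encodes beta-catenin itself, measured 320.25, 325.70 and 313.37 FPKM in LLC alone and 234.25, 238.33 and 235.64 FPKM in LLC with BMSCs. The groups were tight and apart, and the transcript fell by 0.46 on the log2 scale (SE 0.050, adjusted p = 0.000148). Beta-catenin is controlled mostly through the stability of its protein, which was not measured here.

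The casein kinases and Dishevelled proteins, which work next to the receptors, did not move as a block. Csnk1a1, the kinase that marks beta-catenin first for destruction, had means of 72.2 ± 3.82 and 103.7 ± 0.518 FPKM (SD, n = 3) and rose (log2 fold change 0.44, SE 0.053, adjusted p = 0.000255). Csnk1g1, Csnk1g2 and Csnk1g3, which act on Lrp6, were also higher, Csnk1e was lower and Csnk1d was not called (log2 fold change 0.01, SE 0.054). The Csnk1g2 call was lost in 4 of 17 alternatives, with single libraries left out (LLC alone replicate 1 or 2, or LLC with BMSCs replicate 2, adjusted p from 0.0649 to 0.0683) and with the close pairs summed (adjusted p = 0.18). Among the Dishevelled genes, which pass the signal from Frizzled to Axin, Dvl1 rose from 19.9 ± 0.675 to 32.6 ± 0.717 FPKM (SD, n = 3) and Dvl3 from 5.91 ± 1.24 to 9.79 ± 0.671 FPKM, and Dvl2 fell from 16.6 ± 0.242 to 13.1 ± 0.142 FPKM. The adjusted p-values were 3.53e-05, 0.00345 and 0.000503. These genes were named after their values were seen.

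Also higher were Btrc, Amer1, Tnks2, Kremen1, Apcdd1, Frat2 and Tle2 and, of the polarity branch, Vangl2, Prickle1, Prickle2, Daam1, Daam2 and Gpc4. With the length trend removed the Btrc change went from 0.29 to 0.048 (adjusted p = 0.615) and that of Daam2 from 0.42 to 0.17 (adjusted p = 0.0693), and both calls were lost, as was that of Daam2 without LLC with BMSCs replicate 1 (adjusted p = 0.0673). Also lower were Draxin, Frzb, Nkd1, Tle3, Aes and Celsr1. The Aes call was lost in 4 of 17 alternatives, among them the length trend removed (-0.15, adjusted p = 0.111) and either LLC with BMSCs replicate 2 (adjusted p = 0.0708) or replicate 3 (adjusted p = 0.0698) left out, and that of Tle3 with the close pairs of libraries summed (adjusted p = 0.104). Of the 53, 4 were called with a log2 fold change of at least 1 in size, beside 15.8% of all genes. All were under 1 FPKM, and they too are named after their values were seen. Frzb, another secreted Frizzled-related protein, measured 0.74, 0.65 and 0.87 FPKM in LLC alone and 0.33, 0.25 and 0.29 FPKM in LLC with BMSCs, without overlap (log2 fold change -1.40, SE 0.18, adjusted p = 0.000341). It stood above Sfrp4, which was at 0.04 FPKM in LLC alone. Gpc4, a heparan sulphate proteoglycan of the cell surface, had 0 counts in every library of LLC alone and 16, 10 and 12 in LLC with BMSCs. That was 11.9-fold higher against the floor of 3 counts over the group. Prickle2 had 2, 0 and 2 counts against 11, 12 and 12, a ratio of 8.19 (95% interval 2.93 to 31.7, counting error only). Both Gpc4 and Prickle2 passed the filter on low counts only through LLC with BMSCs. Celsr1 fell by 1.25 on the log2 scale from a mean of 0.07 FPKM.

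Known beta-catenin targets went in both directions. Of 22 listed genes, 18 were in the files and 13 tested, with 4 higher, 5 lower and 4 not called and a median log2 fold change of -0.05. The share called, 69.2%, lay near the 62.9% of all tested genes, of which 31.5% were higher and 31.3% lower. The 4 not called were Axin2, Lef1, Rnf43 and Znrf3, all of them members described above. Tcf7, itself on this list, and Nkd1, an inhibitor that the pathway induces, were lower. Myc, the growth-promoting transcription factor, measured 677.32, 686.23 and 686.90 FPKM in LLC alone and 321.48, 283.56 and 287.95 FPKM in LLC with BMSCs. The levels fell by 1.22 on the log2 scale (SE 0.067, adjusted p = 4.80e-06), with the groups far apart. Ccnd1, the G1 cyclin, measured 89.77, 90.28 and 87.11 FPKM against 80.79, 76.56 and 75.81 FPKM, a small fall by 0.22 on the log2 scale (SE 0.056, adjusted p = 0.0102). The Ccnd1 call was lost without LLC with BMSCs replicate 2 (adjusted p = 0.0558) or replicate 3 (adjusted p = 0.0559), and with the close pairs summed (adjusted p = 0.157). Ephb3 was lower as well, from 1.60 ± 0.124 to 1.23 ± 0.0819 FPKM (SD, n = 3, adjusted p = 0.00905).

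On the other side, Cd44, a receptor for hyaluronan, rose from 48.9 ± 0.293 to 79.7 ± 2.80 FPKM (SD, n = 3, adjusted p = 2.86e-05). Sox9, a transcription factor of lung and cartilage progenitors, rose from 1.29 ± 0.104 to 2.28 ± 0.190 FPKM (SD, n = 3, adjusted p = 0.000311), and Jag1, a Notch ligand, from 0.343 ± 0.0462 to 0.85 ± 0.0954 FPKM (SD, n = 3, adjusted p = 0.000165). Apcdd1, a membrane inhibitor of the pathway, was higher with a log2 fold change of 0.40 (SE 0.080, adjusted p = 0.00336). Many of these genes answer to other pathways too, Myc and Ccnd1 among them. 

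**Figure D5:**
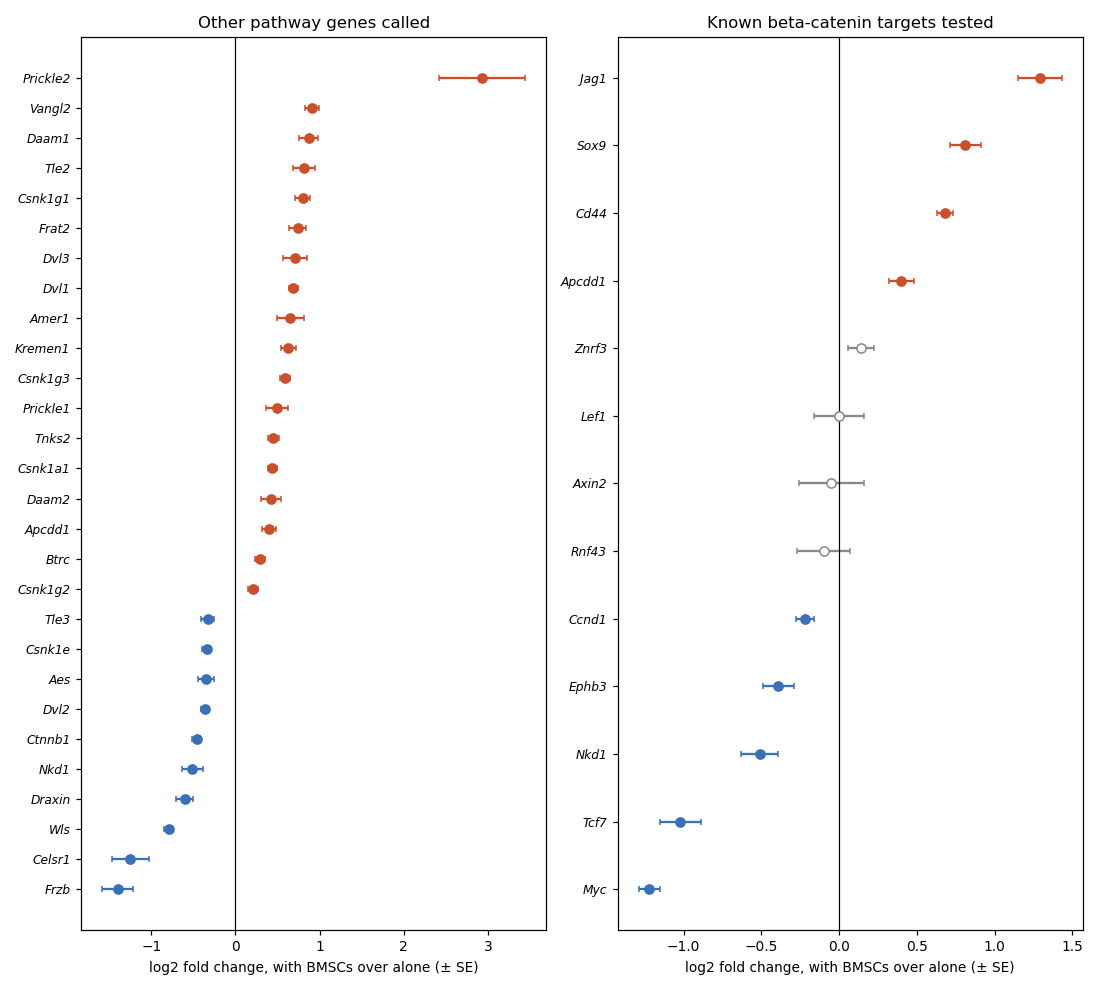
Log2 fold change with its standard error, LLC with BMSCs over LLC alone, of the other pathway genes called (left) and of all 13 known beta-catenin targets tested (right), where filled points have an adjusted p under 0.05. Gpc4 is left out because it had 0 counts in every library of LLC alone. On the right Jag1 lies highest at 1.29 and Myc lowest at -1.22, and the open points Znrf3, Lef1, Axin2 and Rnf43 lie near 0.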

How the data were processed

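RNA of sorted LLC cells was sequenced in 6 libraries, grouped by the sample titles into 3 of each kind. According to the study's methods, RNA was taken up in TRIzol, selected with oligo-dT beads and read in pairs on a BGISEQ-500, while the labels name Illumina protocols. The submitters' processing notes name HISAT, StringTie, Cufflinks, GATK and the build mm8 without roles or versions, and the program that counted reads and its use of strand are not given in the sources used here. For genes and transcripts the authors deposited raw estimated counts, of which 21.9% to 23.2% per library were not whole, and reads shared by near-identical genes may be split between them. The FPKM values the authors deposited are scaled by length and library total. Depth was 33476347 to 46189113 fragments, which limits genes of a few counts. Symbols of 27 genes stored as dates were restored, and 1151 genes had no symbol.

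Estimated counts were rounded and tested with edgeR 4.0.16 in R 4.3.3 (TMM, default filter on low counts, quasi-likelihood test, Benjamini-Hochberg over 13353 genes, adjusted p under 0.05) with no covariates. Intervals of count ratios are exact 95% intervals and cover counting error only. The floor of 3 counts stands in for a group at 0, and folds against it take the counts of the other group as exact. The script was tested on simulated data. Members were all counted. Named with their values were those called with a mean of at least 1 FPKM in a group or with a log2 fold change of at least 1 in size, and outside the members, called genes of that level and size with Ctnnb1, Wls, Myc and Ccnd1, while any other named gene was chosen after its values were seen. The members and all lists were chosen with earlier results of these data known. The 17 alternatives were DESeq2 1.42.0, other scalings and filters, limma 3.58.1 on log2(FPKM + 1) and log2(FPKM + 0.1), each library left out, the replicate number as a block, trends over length removed, and the closest libraries of each group summed (LLC alone 1 with 2, and LLC with BMSCs 2 with 3, which still differed by more than counting noise). Removing length and GC trends together was chosen after seeing the data. Promoter sequences came from RefSeq, and exon overlaps from the GENCODE annotation.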

Additional observations from a re-analysis of the deposited data

How the results depend on the processing

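Of the 15 members called, 12 stayed past the threshold in every alternative that gave a value, 3 (Wnt5a, Wnt5b and Apc) lost the call in some and 0 reversed. The 12 include Sfrp4 and Wnt9a, which entered the test through the group where each was high. Neither gave a value with limma or with at least 10 counts in every library. Of 35 other called genes of the pathway and target lists, 29 held in every alternative that gave a value and 0 reversed. The 5 members called lower became 3 with limma on either pseudocount, where genes under 1 FPKM were not tested, and 8 with the length and GC trends removed (Tcf7l1, Tcf7l2 and Znrf3 joined). The 5 members called with a log2 fold change of at least 1 in size became 8 with no filter, 3 with at least 10 counts in every library, 1 with limma on either pseudocount and 3 with the close pairs summed, and ranged from 3 (without LLC alone replicate 1) to 5 with single libraries left out. The 10 other pathway genes called lower became 6 with limma on either pseudocount. The replicate numbers did not pair the samples (correlations of same-numbered libraries 0.076, -0.106 and 0.057, and not every library correlated best with its own number). With the replicate number as a block, 10 members were higher and 6 lower, Wnt5b lost its call (adjusted p = 0.0746) and Lrp6 (adjusted p = 0.0254) and Tcf7l1 (adjusted p = 0.0286) passed. The members that changed sign were not called, apart from Znrf3. Axin2 was 0.051 with close pairs summed and ran from -0.23 to 0.087 with single libraries left out. Wnt10a ran from -0.057 to 0.12 and Wnt4 from -0.22 to 0.21 with single libraries left out, and Wnt4 was -0.021 with the length trend and -0.039 with the length and GC trends removed. Wnt6 was 0.011 with both trends removed. Lef1 was 0.018 without TMM, 0.002 with no filter, 0.003 with at least 10 counts in every library, 0.001 with the block, 0.017 with close pairs summed and from -0.11 to 0.099 with single libraries left out. Znrf3 was -0.13 with the length trend removed (adjusted p = 0.036) and -0.15 with both removed (adjusted p = 0.026). The causes were not tested. Depth limits the 22 members without a test, and a small change in Axin2, Wnt4 or Wnt9a could not be resolved.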
